A study of Mus musculus with 15 samples.

Results

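The genes described here build the mitotic spindle, condense and hold the chromosomes, check their attachment and split the dividing cell. They are 59 mouse genes, chosen by symbol from a list and found in the count files, out of 24490 genes in all. The choice was made by gene symbol, with earlier results of these data known. All 59 had enough reads to be tested, and their mean levels with scrambled siRNA at 30 h ran from 8.79 to 354 CPM (counts relative to library size, scaled between libraries by the trimmed mean of M values), so none was near the filter on low counts.

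The cells were granulosa cells in primary culture, the follicle cells that nurse the oocyte, taken from 8-week-old female RjOrl:SWISS mice. They were transfected with 30 pmol of siRNA and gave 15 RNA-seq libraries in 5 groups of 3: Foxl2 siRNA, Esr2 siRNA and scrambled siRNA at 30 h, and Foxl2 siRNA and scrambled siRNA at 54 h after transfection. Every group carried siRNA and lipid reagent, so an untransfected level was not part of the comparison. The knockdowns used pools of 3 siRNAs from 4 pools named per target, and the labels list the same catalogue numbers for both targets, name no pool for a library and leave out whether replicates were separate animals or cultures. The p-values therefore measure only how far these libraries vary, and that variation may be technical.

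Mitosis runs through a short burst of transcription late in the cell cycle. The transcription factors FOXM1 and MYB-related protein B (encoded by Mybl2), together with the MuvB complex, switch on a shared set of late cell cycle genes, many of which carry a CHR element and CCAAT boxes close to the transcription start. CDK1 with cyclin B then drives the cell into mitosis, kinesins and spindle proteins arrange the microtubules, the spindle checkpoint delays anaphase until every kinetochore is attached, and the anaphase-promoting complex ends mitosis by marking cyclin B and securin for destruction. In the ovary, granulosa cells divide in growing follicles and leave the cell cycle when they luteinise.

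The stretches just before the transcription start show the letters that many of these genes share. They are the 100 bases before the start for the members described one by one below that hold a CHR match, TTTGAA or TTCAAA on the other strand, in that stretch, and for Bub3 and Cdc20, which were added after their values were seen because they were the members that did not pass the test at 54 h. Sequences are from RefSeq on GRCm38.p6, written 5′ to 3′ along the gene's strand, with TTTGAA or TTCAAA and CCAAT or ATTGG in capitals.
Mki67: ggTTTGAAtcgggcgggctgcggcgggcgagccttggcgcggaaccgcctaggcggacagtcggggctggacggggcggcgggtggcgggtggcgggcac
Top2a: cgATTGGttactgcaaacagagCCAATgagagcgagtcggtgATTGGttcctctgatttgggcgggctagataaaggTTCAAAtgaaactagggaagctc
Cdk1: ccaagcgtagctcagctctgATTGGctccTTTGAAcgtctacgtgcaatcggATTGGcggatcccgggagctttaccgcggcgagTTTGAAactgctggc
Ncapg: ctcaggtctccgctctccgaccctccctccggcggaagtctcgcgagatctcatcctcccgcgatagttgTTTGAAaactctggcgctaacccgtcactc
Kif11: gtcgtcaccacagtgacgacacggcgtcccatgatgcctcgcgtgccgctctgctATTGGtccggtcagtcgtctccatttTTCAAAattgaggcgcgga
Espl1: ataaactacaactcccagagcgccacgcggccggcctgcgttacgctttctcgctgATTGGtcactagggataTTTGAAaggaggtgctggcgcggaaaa
Ube2c: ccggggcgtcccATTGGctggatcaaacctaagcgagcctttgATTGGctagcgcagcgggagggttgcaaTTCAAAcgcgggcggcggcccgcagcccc
Cdc20: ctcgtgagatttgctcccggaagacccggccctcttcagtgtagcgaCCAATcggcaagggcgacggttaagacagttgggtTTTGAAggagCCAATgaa
Bub3: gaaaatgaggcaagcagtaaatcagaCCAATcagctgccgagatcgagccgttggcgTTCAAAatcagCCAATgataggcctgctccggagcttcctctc

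These stretches lie at chr7:135716380-135716479 for Mki67, chr11:99024190-99024289 for Top2a, chr10:69352913-69353012 for Cdk1 and chr4:118437344-118437443 for Cdc20, all on the minus strand. On the plus strand they lie at chr5:45669825-45669924 for Ncapg, chr19:37376282-37376381 for Kif11, chr15:102296193-102296292 for Espl1, chr2:164769829-164769928 for Ube2c and chr7:131560270-131560369 for Bub3. The match nearest the start began 15 bases before it in Cdk1, 18 in Cdc20, 19 in Kif11, 23 in Top2a, 27 in Espl1, 29 in Ube2c, 30 in Ncapg, 43 in Bub3 and 98 in Mki67. In 7 of these 9 stretches a CCAAT or ATTGG was also present; Ncapg and Mki67 had none there.

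The libraries held 45 to 59.6 M gene counts. Foxl2, the forkhead factor needed for granulosa cell identity, lies at chr9:98955288-98958543 on the plus strand of mm10. Foxl2 measured 33.8, 28.4 and 65.4 CPM in replicates 1 to 3 of Foxl2 siRNA at 30 h, against 174, 152 and 143 CPM with scrambled siRNA at 30 h. At 54 h it measured 33.7, 57.5 and 25.2 CPM with Foxl2 siRNA, against 189, 154 and 166 CPM with scrambled siRNA. The most Foxl2 transcript remained in replicate 3 of the 30 h group and in replicate 2 of the 54 h group. Esr2, which encodes oestrogen receptor beta, measured 12.9, 14.5 and 13.9 CPM with Esr2 siRNA, against 60.6, 60.4 and 61.6 CPM with scrambled siRNA at 30 h. It was also lower with Foxl2 siRNA at 54 h (log2 change -1.31 ± 0.34 SE, edgeR adjusted p = 0.00854). At 30 h Esr2 measured 29.2, 25 and 45.5 CPM with Foxl2 siRNA, and Foxl2 measured 112, 128 and 114 CPM with Esr2 siRNA. Each of these lay below every scrambled library of 30 h.

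The summed level of the 59 mitosis genes was highest, in each Foxl2 siRNA group, in the library with the most Foxl2 left. That library also held the most Esr2 of its group, 45.5 CPM at 30 h and 49.3 CPM at 54 h. The summed level was 3883, 3358 and 4638 CPM in replicates 1 to 3 of Foxl2 siRNA at 30 h. It was 4716, 4852 and 4660 CPM with Esr2 siRNA at 30 h, and 4892, 4417 and 4568 CPM with scrambled siRNA at 30 h. At 54 h it was 2186, 3514 and 2338 CPM with Foxl2 siRNA, against 4589, 4389 and 4426 CPM with scrambled siRNA. Replicate 1 of Foxl2 siRNA had the lowest sum there, while replicate 3 had the least Foxl2 (25.2 CPM, against 33.7 CPM in replicate 1). At 54 h every Foxl2 siRNA library lay below every scrambled library, and the group mean of 2680 ± 727 CPM (SD, n = 3) was 60% of the scrambled mean of 4468 ± 106 CPM (SD, n = 3). At 30 h the mean of 3959 ± 643 CPM (SD, n = 3) was 85.6% of the scrambled mean of 4626 ± 243 CPM (SD, n = 3), and replicate 3 lay within the scrambled range. The Esr2 siRNA mean was 4743 ± 99 CPM (SD, n = 3), or 103% of scrambled.

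**Figure D1:**
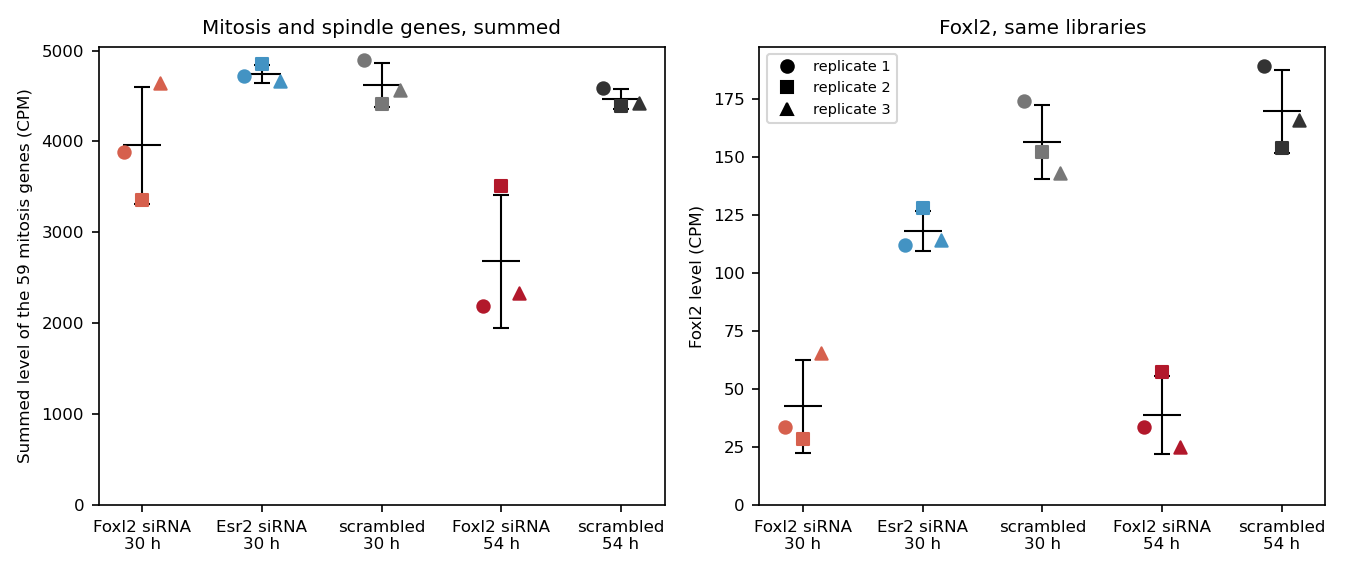
Summed level of the 59 mitosis and spindle genes (left) and level of Foxl2 (right) in each library, in CPM; marker shapes give the replicate, and black bars the group mean and SD of 3 libraries. The 3 Foxl2 siRNA libraries at 54 h sit between 2186 and 3514 CPM, all below the scrambled libraries of 54 h, and the library with the most Foxl2 left in each Foxl2 siRNA group has the highest summed level of that group.

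Nearly all of the 59 genes moved together from library to library. Across the 15 libraries, the median Pearson correlation of a gene's log2 level with the summed level of the other 58 was 0.98, and 58 of 59 genes reached at least 0.9. This is a description, since the libraries share groups. The lowest values were 0.59 for Bub3 and 0.91 for Ect2, Prc1 and Kif22. Within the Foxl2 siRNA group at 54 h, 58 of 59 genes were highest in replicate 2, and 53 were lowest in replicate 1. Within the Foxl2 siRNA group at 30 h, all 59 were highest in replicate 3 and 56 were lowest in replicate 2. The correlations and these orders were not counted over all tested genes. Whether they are particular to the mitosis genes was therefore not tested. The median coefficient of variation of a member within a group was 29.2% for Foxl2 siRNA at 54 h and 17.6% at 30 h, against 3.08% with scrambled siRNA at 54 h and 5.96% at 30 h. Over all 14907 tested genes the same medians were 12.4% and 11.4% for Foxl2 siRNA at 54 h and 30 h, and 4.57% and 5.78% for scrambled siRNA.

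At 54 h Foxl2 siRNA lowered nearly all of these mitosis genes. Of the 59 genes, 57 were lower and 0 higher than with scrambled siRNA at an adjusted p under 0.05 in edgeR's quasi-likelihood test, against 20.3% of all tested genes lower and 38.8% called in either direction. Bub3 and Cdc20 did not pass. The median log2 change of the 59 was -0.74, a 1.67-fold lower level, against -0.01 over all tested genes. In 56 of 59 members all 3 Foxl2 siRNA libraries lay below all 3 scrambled libraries, against 27.9% of tested genes. The called changes ran from 1.26-fold to 2.46-fold lower, 49 members were at least 1.5-fold lower and 8 at least 2-fold. In bulk RNA, fewer dividing cells and less of these transcripts per dividing cell cannot be told apart. Without replicate 2 of Foxl2 siRNA, 58 members were called lower with a median log2 change of -1.02, against 23.2% of all tested genes in that fit. Without replicate 1 or 3, 45 were, against 15.5% and 16.7%.

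**Figure D2:**
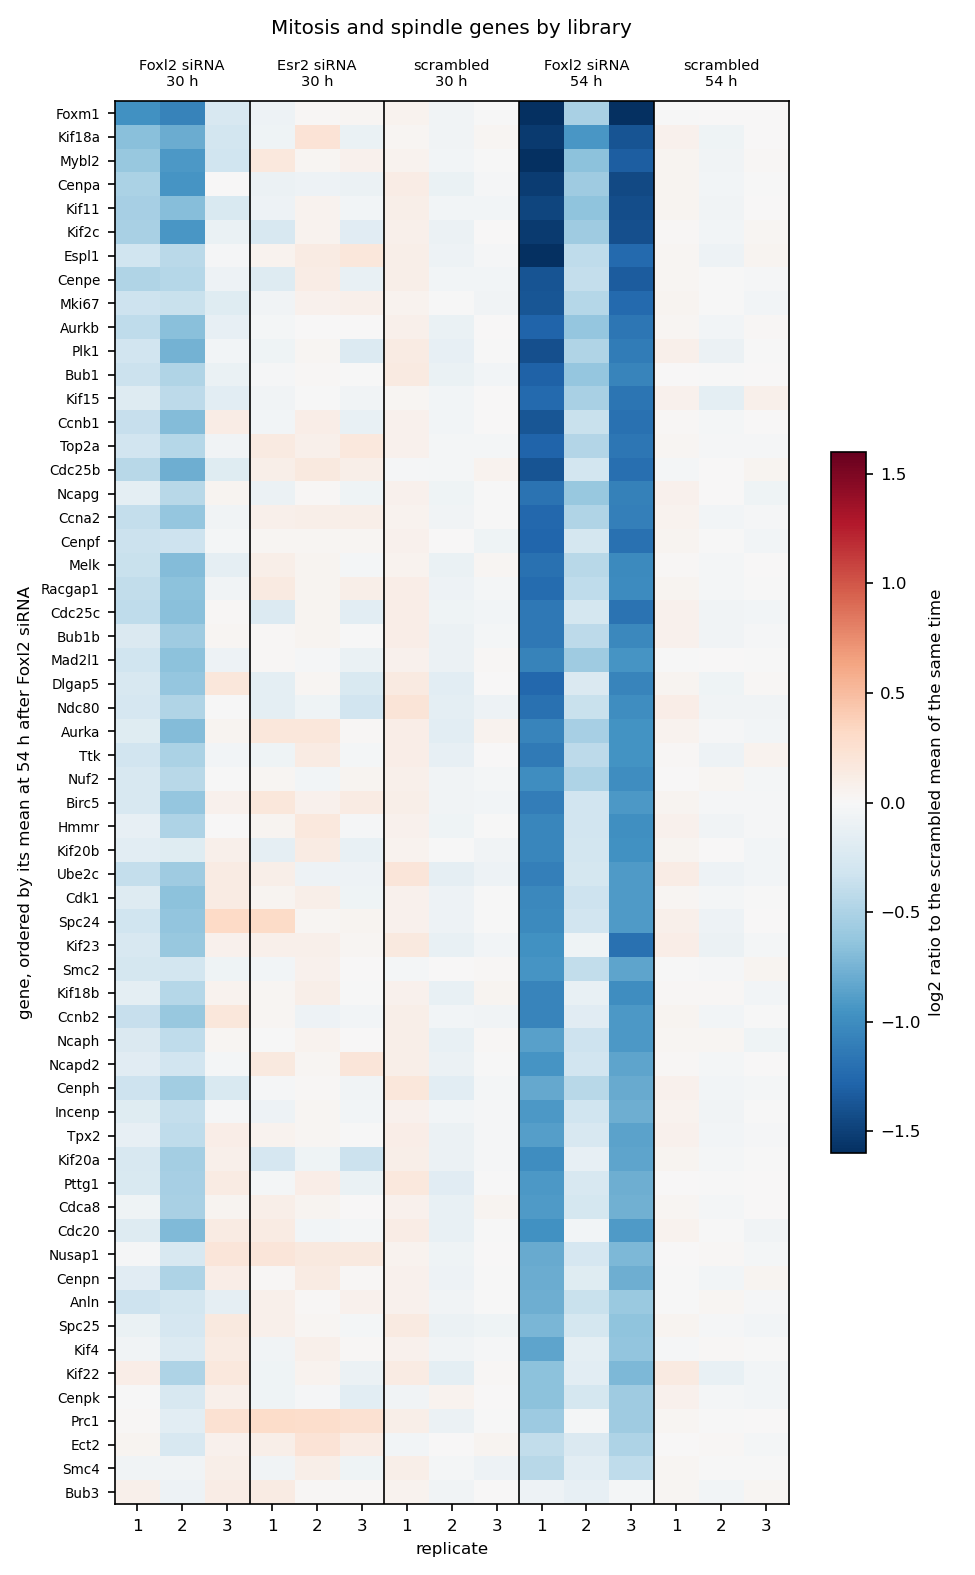
Log2 ratio of each of the 59 genes in each library to the mean of the scrambled libraries of the same time (0.5 CPM added to both), with genes ordered by their mean at 54 h after Foxl2 siRNA. Blue is lower: the Foxl2 siRNA columns of 54 h are blue in replicates 1 and 3 in all rows but the last, Bub3, and paler in replicate 2, and the Foxl2 siRNA columns of 30 h are palest in replicate 3.

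The regulators of the programme and its general marker were among the genes with the larger changes, and all 3 fell at 54 h. Foxm1 (chr6 of mm10), a forkhead factor that drives late cell cycle transcription, had 21.2, 53.4 and 24.4 CPM with Foxl2 siRNA at 54 h, against 76.0, 76.7 and 76.5 CPM with scrambled siRNA. The Foxl2 siRNA libraries differed among themselves by more than a factor of 2 and still did not reach the scrambled ones; the log2 change was -1.21 ± 0.28 (SE, adjusted p = 0.00479). Mybl2 (chr2), whose product joins the MuvB complex, had 7.68, 16.4 and 10.2 CPM with Foxl2 siRNA, against 27, 25 and 26.4 CPM with scrambled siRNA, a log2 change of -1.19 ± 0.21 (SE, adjusted p = 0.000791). Mki67 (chr7), which encodes the proliferation marker Ki-67, a coat of mitotic chromosomes, had 139, 262 and 152 CPM with Foxl2 siRNA and 371, 359 and 348 CPM with scrambled siRNA. Its log2 change was -0.96 ± 0.17 (SE, adjusted p = 0.000915), with no overlap of the groups.

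All 6 genes of mitotic entry fell at 54 h, with log2 changes between -0.91 and -0.67. Cdk1, the kinase that starts mitosis, had 81.7, 133 and 89.7 CPM with Foxl2 siRNA, against 172, 164 and 167 CPM with scrambled siRNA (log2 change -0.73 ± 0.18 SE, adjusted p = 0.00745). Ccnb1, cyclin B1, its mitotic partner, had 38.7, 79.1 and 43.9 CPM with Foxl2 siRNA and 102, 98.5 and 101 CPM with scrambled siRNA (log2 change -0.90 ± 0.23 SE, adjusted p = 0.00826). Both genes thus kept the order of libraries seen in the sum. Ccna2, cyclin A2, which acts from S phase to early mitosis, had 58.2, 100 and 65.5 CPM with Foxl2 siRNA, against 146, 136 and 138 CPM with scrambled siRNA (log2 change -0.91 ± 0.17 SE, adjusted p = 0.00107). Cdc25b, a phosphatase that activates CDK1, was expressed at a lower level, with 6.31, 14 and 7.15 CPM with Foxl2 siRNA and 16.8, 17.3 and 17.7 CPM with scrambled siRNA. Its log2 change of -0.91 ± 0.23 (SE) had an adjusted p of 0.00773, and of 0.064 when the 54 h groups alone were fitted. Ccnb2 and Cdc25c fell as well, by 0.67 and 0.84 on the log2 scale. Both calls ended when some single library was left out.

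Plk1, Melk and Aurka, kinases placed here in no complex or checkpoint group, fell by 0.83 to 0.96 on the log2 scale at 54 h. Plk1, polo-like kinase 1, which acts in spindle assembly and cytokinesis, had 33.8, 64.9 and 41.4 CPM with Foxl2 siRNA, against 96.4, 85.1 and 90.5 CPM with scrambled siRNA (log2 change -0.96 ± 0.21 SE, adjusted p = 0.00307). Melk, maternal embryonic leucine zipper kinase, had 13.8, 23.5 and 15.7 CPM with Foxl2 siRNA and 32.7, 31.5 and 32.4 CPM with scrambled siRNA (log2 change -0.86 ± 0.17 SE, adjusted p = 0.00152). In both genes the highest Foxl2 siRNA library stayed below the lowest scrambled library. Aurka, the centrosomal Aurora kinase, had a log2 change of -0.83.

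The 6 genes of chromosome condensation and decatenation also fell, but over a wider range of log2 change, -0.95 to -0.34. Ncapg, a subunit of condensin I, had 20.1, 30.1 and 21.5 CPM with Foxl2 siRNA at 54 h, against 48.5, 46.1 and 43.8 CPM with scrambled siRNA (log2 change -0.95 ± 0.14 SE, adjusted p = 0.000223). Top2a, topoisomerase II alpha, which untangles sister DNA, had 126, 221 and 137 CPM with Foxl2 siRNA and 313, 303 and 303 CPM with scrambled siRNA (log2 change -0.93 ± 0.17 SE, adjusted p = 0.000891). Smc4, which with Smc2 forms the core of both condensins, changed least in the group, with a log2 change of -0.34 ± 0.08 (SE, adjusted p = 0.00499), while Smc2 fell by 0.71. Ncaph and Ncapd2, further condensin I subunits, fell by 0.69 and 0.68.

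Of the 5 spindle checkpoint genes, 4 fell at 54 h and Bub3 did not pass the test. Bub1, a kinase of unattached kinetochores, had 20.1, 32.6 and 23.9 CPM with Foxl2 siRNA, against 50.4, 49.8 and 50.4 CPM with scrambled siRNA (log2 change -0.97 ± 0.14 SE, adjusted p = 0.000217). Mad2l1, the MAD2 protein that holds back CDC20, had 30.5, 43.3 and 33.4 CPM with Foxl2 siRNA and 64.4, 64.9 and 64.3 CPM with scrambled siRNA (log2 change -0.85 ± 0.14 SE, adjusted p = 0.000369). Bub1b and Ttk each had a log2 change of -0.83. Bub3, the binding partner of BUB1, had 96.4, 93.0 and 99.5 CPM with Foxl2 siRNA, against 104, 99.3 and 104 CPM with scrambled siRNA, so the groups touched. Its log2 change was -0.09 ± 0.06 (SE, adjusted p = 0.27), and it was not called under any of the 13 alternatives tried. Bub3 was also the member whose level followed the others least.

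All 10 centromere and kinetochore genes fell, by 0.53 to 1.12 on the log2 scale. Cenpa, the histone variant that marks centromeres, had 20.2, 39.6 and 21.4 CPM with Foxl2 siRNA at 54 h, against 60.6, 57.4 and 58.9 CPM with scrambled siRNA (log2 change -1.12 ± 0.24 SE, adjusted p = 0.00296). Cenpe, a kinesin that carries chromosomes to the spindle equator, had 32, 64.6 and 33.2 CPM with Foxl2 siRNA and 86.0, 84.0 and 83.1 CPM with scrambled siRNA (log2 change -0.96 ± 0.22 SE, adjusted p = 0.00353). The 4 subunits of the NDC80 complex, which grips microtubule ends, had log2 changes of -0.83 for Nuf2, -0.82 for Ndc80, -0.74 for Spc24 and -0.55 for Spc25. The inner kinetochore genes Cenph, Cenpn and Cenpk fell by 0.73, 0.59 and 0.53, and Cenpf, a large outer kinetochore protein, by 0.84. The calls of Spc24 and Cenpn ended when some single library was left out.

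The chromosomal passenger complex corrects faulty attachments and later acts at the cleavage site, and its 4 subunit genes fell together. Aurkb, its Aurora B kinase, had 16.7, 26.8 and 18.3 CPM with Foxl2 siRNA at 54 h, against 42.2, 39.9 and 41.8 CPM with scrambled siRNA. This was a log2 change of -1 ± 0.16 (SE, adjusted p = 0.000315). Birc5, survivin, had 24.4, 42.7 and 27.8 CPM with Foxl2 siRNA and 54.6, 52.3 and 52.0 CPM with scrambled siRNA (log2 change -0.74 ± 0.18 SE, adjusted p = 0.00669). Incenp, the scaffold, and Cdca8, borealin, had log2 changes of -0.65 and -0.63.

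All 10 mitotic kinesins fell, and they included the member with the largest change. Kif18a, which dampens chromosome oscillation at the metaphase plate, lies on chr2 of mm10 and had 8.18, 12.6 and 9.07 CPM with Foxl2 siRNA at 54 h, against 25.7, 23.4 and 24.5 CPM with scrambled siRNA. The highest Foxl2 siRNA library was far below the lowest scrambled library; the log2 change was -1.30 ± 0.16 (SE, adjusted p = 5.67e-05), a 2.46-fold lower level. Kif11, the motor that pushes spindle poles apart, had 40.5, 72.2 and 41.9 CPM with Foxl2 siRNA and 116, 109 and 113 CPM with scrambled siRNA (log2 change -1.13 ± 0.18 SE, adjusted p = 0.000361). Kif2c, a microtubule depolymerase at centromeres, had a log2 change of -1.12. Kif4 and Kif22, both chromosome-arm kinesins, were at the other end with -0.52 and -0.50, and Kif15, Kif20b, Kif18b, Kif23 and Kif20a lay between. For Kif23, which bundles midzone microtubules, the groups overlapped and the adjusted p was 0.0402. The calls of Kif20a, Kif18b, Kif22 and Kif23 ended when some single library was left out. Their highest adjusted p among the alternatives was 0.106, 0.0989, 0.128 and 0.149 in edgeR.

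The spindle-associated proteins fell by 0.38 to 0.78 on the log2 scale, 5 of 5. Dlgap5, a stabiliser of kinetochore fibres, had 17.6, 36.3 and 20.2 CPM with Foxl2 siRNA at 54 h, against 44.1, 40.7 and 43.1 CPM with scrambled siRNA (log2 change -0.78 ± 0.24 SE, adjusted p = 0.02). This call ended without replicate 1 or 3 of either 54 h group and when the 54 h groups alone were fitted, and the highest adjusted p among the alternatives was 0.0853. Hmmr, a spindle assembly and hyaluronan-binding protein, had 46.0, 77.2 and 48.0 CPM with Foxl2 siRNA and 99.5, 91.9 and 94.3 CPM with scrambled siRNA (log2 change -0.74 ± 0.17 SE, adjusted p = 0.00406). Tpx2, which activates Aurora A on the spindle, and Nusap1, a microtubule bundler, fell by 0.64 and 0.58. Prc1, the crosslinker of the midzone, fell by 0.38, and its call ended when some single library was left out.

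The 3 cytokinesis genes fell as well. Racgap1, a subunit of centralspindlin, had 39.1, 69.5 and 45.8 CPM with Foxl2 siRNA at 54 h, against 95.6, 90.4 and 91.8 CPM with scrambled siRNA (log2 change -0.85 ± 0.18 SE, adjusted p = 0.0025). Anln, anillin, the scaffold of the contractile ring, had 91.4, 123 and 104 CPM with Foxl2 siRNA and 156, 160 and 155 CPM with scrambled siRNA. Its change was smaller and tighter, -0.57 ± 0.09 (log2, SE, adjusted p = 0.000316). Ect2, the exchange factor that activates RhoA at the midzone, fell by 0.36.

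Of the 4 genes of anaphase onset and mitotic exit, 3 fell at 54 h. Espl1, separase, which cuts cohesin, had 13.3, 31.6 and 17.4 CPM with Foxl2 siRNA, against 42.9, 39.7 and 43.1 CPM with scrambled siRNA (log2 change -1.01 ± 0.23 SE, adjusted p = 0.00369). Ube2c, a ubiquitin-conjugating enzyme of the anaphase-promoting complex, had 34.4, 60.8 and 39.2 CPM with Foxl2 siRNA and 80.3, 69.9 and 72.0 CPM with scrambled siRNA (log2 change -0.72 ± 0.20 SE, adjusted p = 0.0127). Without replicate 1 or 3 of Foxl2 siRNA its call ended, with a highest adjusted p of 0.0588. Pttg1, securin, fell by 0.63, and its call also ended without replicate 1 or 3 of Foxl2 siRNA. Cdc20, the activator of the complex in mitosis, had 40.2, 76.9 and 42.3 CPM with Foxl2 siRNA, against 83.0, 79.1 and 76.3 CPM with scrambled siRNA. Replicate 2 lay within the scrambled range, and the log2 change of -0.58 ± 0.23 (SE) had an adjusted p of 0.0602; without that replicate it was -0.94 with an adjusted p of 0.00106.

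**Figure D3:**
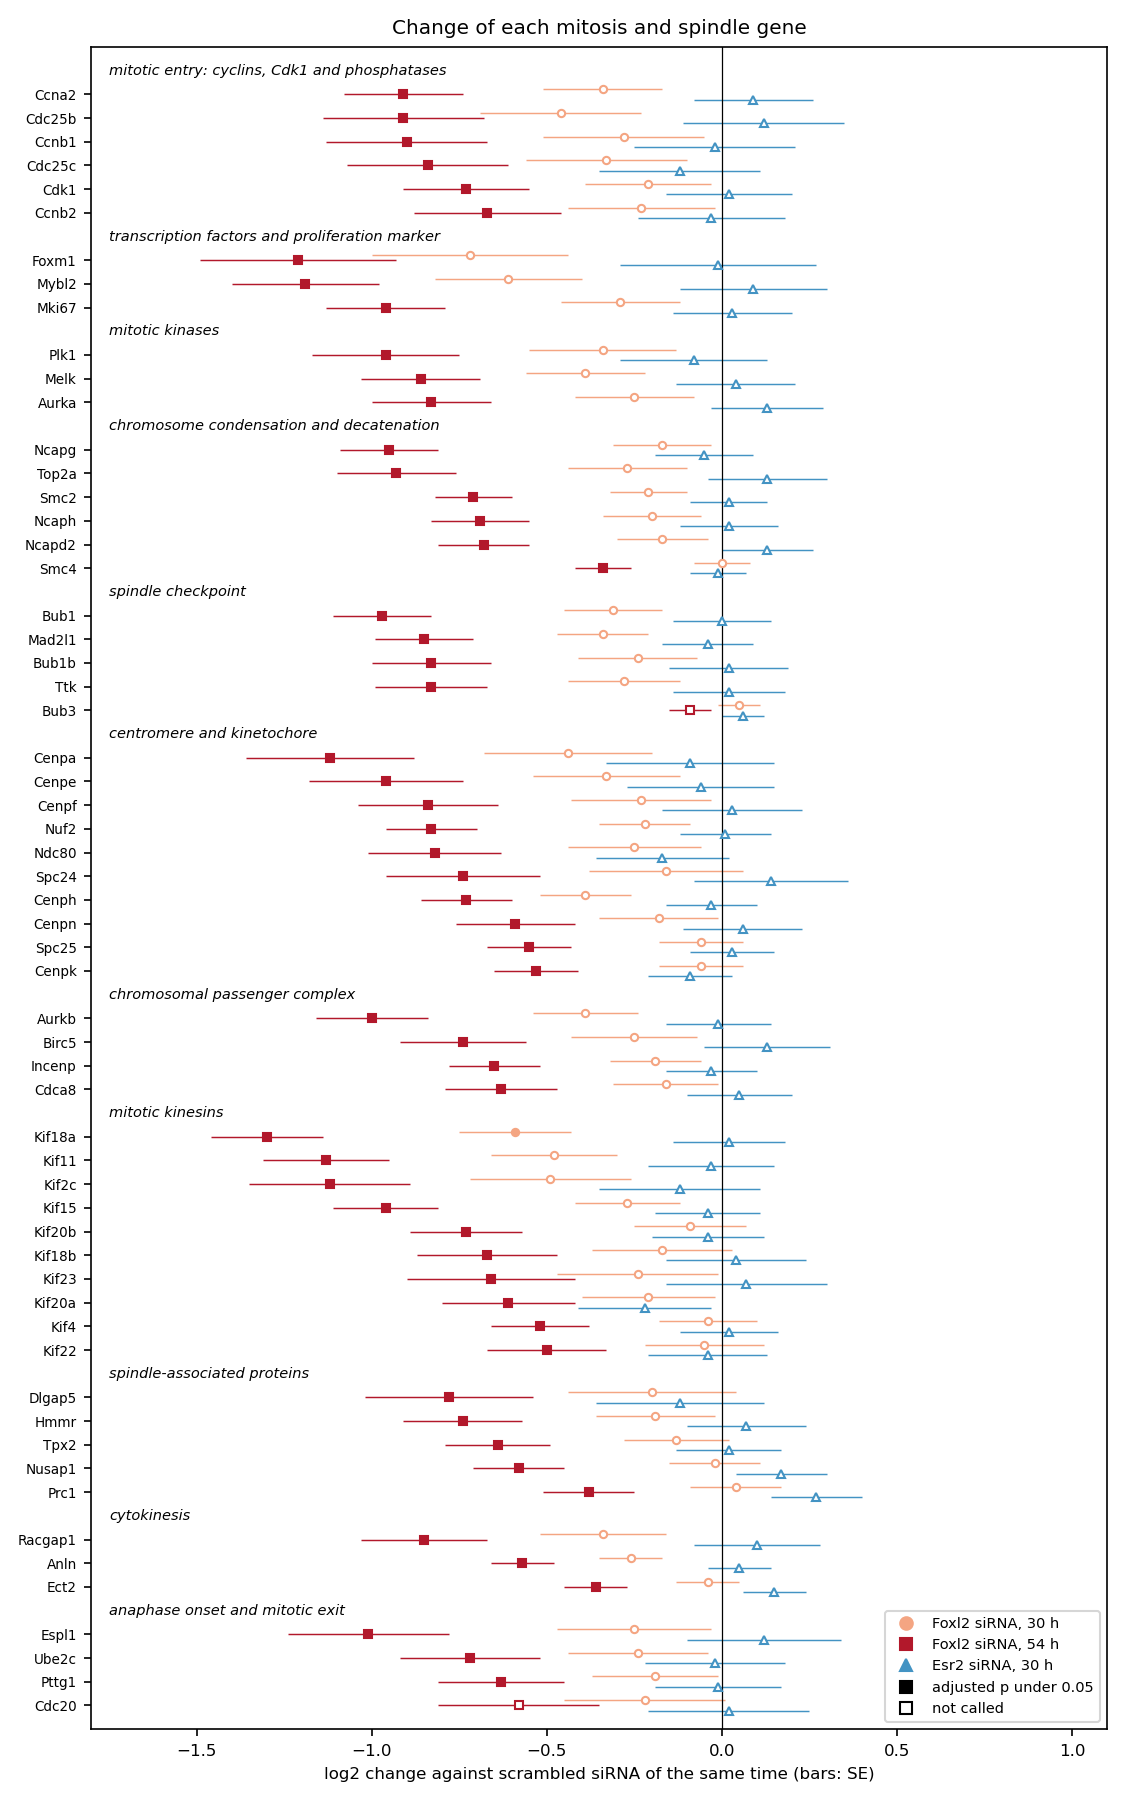
Log2 change of each of the 59 genes against scrambled siRNA of the same time, by role, for Foxl2 siRNA at 30 h (circles), Foxl2 siRNA at 54 h (squares) and Esr2 siRNA at 30 h (triangles); bars are the SE, and filled symbols mark an adjusted p under 0.05. The squares lie between -1.30 and -0.09 and are filled for 57 genes, 1 circle is filled (Kif18a), and no triangle is filled.

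Divided by the joined length of all annotated exons of a gene, the level of these genes was led by Cdc20, Plk1 and Ccnb2. This order depends on the length taken, and lengths of single transcripts were not used. With scrambled siRNA at 30 h Cdc20 stood at 47.0 CPM per kilobase of exon, Plk1 at 44.1 and Ccnb2 at 37.5, and Cenpk was lowest at 1.68, with a median of 11.7 over the 59. Cdc20, Plk1 and Ccnb2 stood at 28.4, 21.2 and 23.0 CPM per kilobase with Foxl2 siRNA at 54 h, against 42.5, 41.2 and 36.7 with scrambled siRNA at 54 h, so Cdc20 remained the first of the 3.

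At 30 h after Foxl2 siRNA the same genes mostly leaned the same way, but 1 of 59 passed the test. Kif18a was lower, against 6.65% of all tested genes called lower and 13% called in either direction, and 0 members were higher, against 6.34%. It had 15.9, 14.5 and 20.7 CPM with Foxl2 siRNA, against 26.1, 24.6 and 26.1 CPM with scrambled siRNA (log2 change -0.59 ± 0.16 SE, edgeR adjusted p = 0.0269). Leaving out any library of scrambled siRNA at 30 h, or replicate 1 or 2 of Foxl2 siRNA, ended this call, with an adjusted p of up to 0.114. The median log2 change of the 59 was -0.24, with 57 below 0. An unadjusted p under 0.05 was seen in 9, against 4191 of all 14907 tested genes. DESeq2 called 4 members lower, against 8.53% of all tested genes, and limma-voom with quality weights 31, against 18.5%. In 16 members the groups did not overlap, all below, against 17.7% of tested genes.

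The spread among the 30 h libraries was wide. The median log2 ratio of the members to the scrambled mean was -0.26 in replicate 1, -0.50 in replicate 2 and 0.02 in replicate 3, the library with the most Foxl2 left. Without replicate 3, 10 members were called lower: Kif18a, Foxm1, Mybl2, Mad2l1, Cenpa, Cenph, Aurkb, Kif11, Kif2c and Anln. In that fit 1584 of 15130 tested genes were called lower, against 991 of 14907 (6.65%) with every library. Foxm1 had 41.2, 38.6 and 68.0 CPM with Foxl2 siRNA at 30 h, against 84.5, 78.6 and 81.0 CPM with scrambled siRNA, with no overlap and a log2 change of -0.72 ± 0.28 (SE, adjusted p = 0.111 with all libraries). Mybl2 had 18.1, 14.5 and 22.2 CPM with Foxl2 siRNA and 29.1, 27.0 and 27.7 CPM with scrambled siRNA (log2 change -0.61 ± 0.21 SE, adjusted p = 0.0717). These were the other members with a change of at least 1.5-fold at 30 h, 3 with Kif18a.

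The other anchors of the programme were closer to scrambled at 30 h. Mki67 had 282, 276 and 309 CPM with Foxl2 siRNA, against 369, 351 and 341 CPM with scrambled siRNA, without overlap (log2 change -0.29 ± 0.17 SE, adjusted p = 0.299). Top2a had 241, 217 and 288 CPM with Foxl2 siRNA and 314, 292 and 292 CPM with scrambled siRNA (log2 change -0.27 ± 0.17 SE, adjusted p = 0.32). Aurkb had 32.1, 26.8 and 38.9 CPM with Foxl2 siRNA, against 45.4, 39.8 and 43.1 CPM with scrambled siRNA (log2 change -0.39 ± 0.15 SE, adjusted p = 0.114). Top2a and Aurkb also showed no overlap between the groups, though replicate 3 came within a few CPM of the scrambled libraries. Cdk1, Ccnb1 and Plk1 overlapped with scrambled siRNA, and their log2 changes were -0.21 ± 0.18, -0.28 ± 0.23 and -0.34 ± 0.21 (SE, adjusted p = 0.502, 0.47 and 0.302).

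**Figure D4:**
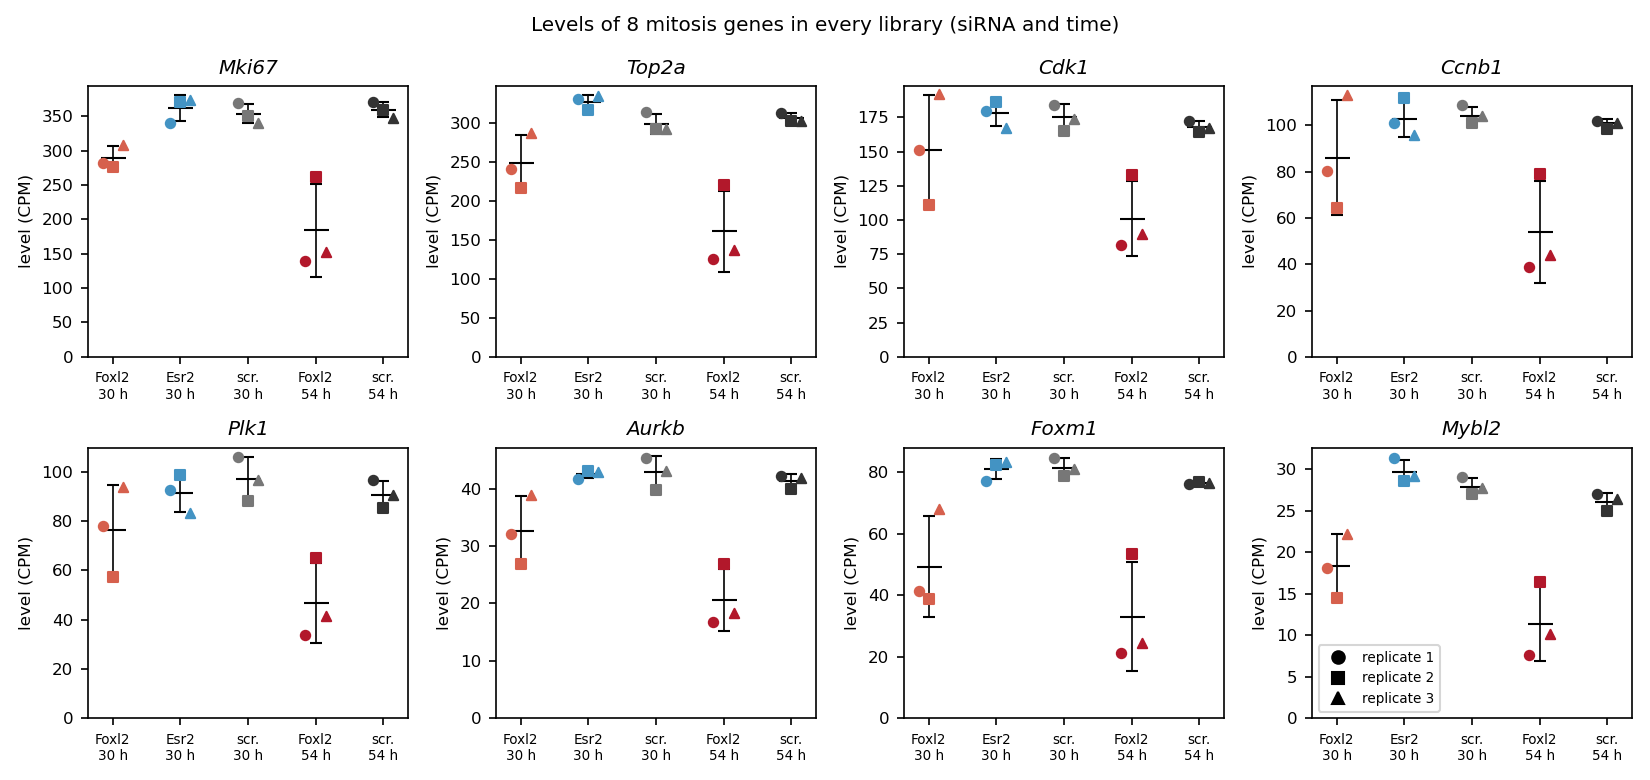
CPM of Mki67, Top2a, Cdk1, Ccnb1, Plk1, Aurkb, Foxm1 and Mybl2 in every library; marker shapes give the replicate and black bars the mean and SD of 3 libraries. In all 8 genes the 3 Foxl2 siRNA libraries of 54 h lie below the 3 scrambled libraries of 54 h, with replicate 2 the highest of the 3.

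Whether the change at 54 h was larger than at 30 h was tested as the difference of the 2 changes. It was below 0 in 59 of 59 members with a median of -0.51 on the log2 scale, and 0 members passed in edgeR, against 0.00671% of tested genes called. At an unadjusted p under 0.05 there were 31, against 1510 of all 14907 tested genes. Ncapg had the largest difference, -0.77 ± 0.20 (log2, SE, adjusted p = 0.2). The tools disagreed: DESeq2 called 1 member lower, against 0.61% of all tested genes, and limma-voom with quality weights 53, against 3.82%. Without replicate 2 of Foxl2 siRNA at 54 h edgeR called 47 lower, with a median of -0.80, against 3.84% of all tested genes in that fit.

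Esr2 siRNA did not move these genes detectably at 30 h in the main fit. Of 59 members, 0 were called higher or lower in edgeR, against 1.13% of tested genes higher, 3.11% lower and 4.23% in either direction. In that fit 0 had an unadjusted p under 0.05, against 2625 of all 14907 tested genes. The spread in that fit was shared over all 15 libraries, and members varied most within the Foxl2 siRNA groups. When the Esr2 siRNA and scrambled groups of 30 h alone were fitted, 5 members had an unadjusted p under 0.05 in edgeR. All genes were not counted at that threshold in this fit. DESeq2 called 0, and limma-voom with quality weights called Ncapd2, Prc1 and Nusap1 higher and Kif20a lower. Limma-voom called 14.4% of all tested genes higher and 17.3% lower in this comparison, so 3 and 1 of 59 lie below its shares over all genes. The median log2 change was 0.02, from -0.22 for Kif20a to 0.27 for Prc1, with SEs of 0.06 to 0.28. Mki67 had 340, 371 and 374 CPM with Esr2 siRNA, against 369, 351 and 341 CPM with scrambled siRNA at 30 h, and Foxm1 had 77.2, 82.4 and 83.1 CPM with Esr2 siRNA, against 84.5, 78.6 and 81.0 CPM. The groups overlapped in both genes. In 6 members, Ccna2, Cdc25b, Top2a, Prc1, Nusap1 and Ect2, all Esr2 siRNA libraries lay above all scrambled ones, against 14.2% of tested genes. When the 2 groups alone were fitted, Prc1 was called higher, against 3.13% of all genes tested in that fit.

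Set directly against Esr2 siRNA at 30 h, Foxl2 siRNA gave lower levels of 3 members, Mybl2, Kif18a and Anln, against 9.34% of tested genes lower and 20.4% called in either direction. The median log2 difference was -0.26, and 17 members had an unadjusted p under 0.05, against 5131 of all 14907 tested genes. Mybl2 had 18.1, 14.5 and 22.2 CPM with Foxl2 siRNA, against 31.4, 28.6 and 29.2 CPM with Esr2 siRNA (log2 difference -0.70 ± 0.21 SE, adjusted p = 0.031). Kif18a had 15.9, 14.5 and 20.7 CPM with Foxl2 siRNA and 24.3, 29.8 and 23.7 CPM with Esr2 siRNA (log2 difference -0.61 ± 0.16 SE, adjusted p = 0.016). Anln had 138, 142 and 157 CPM with Foxl2 siRNA, against 184, 176 and 182 CPM with Esr2 siRNA (log2 difference -0.31 ± 0.09 SE, adjusted p = 0.0257). The groups of these 3 genes did not overlap. Leaving out replicate 1 or 2 of Foxl2 siRNA ended all 3 calls, leaving out any 1 Esr2 siRNA library left 1 of them, and leaving out replicate 3 of Foxl2 siRNA gave 14 calls, against 12.1% of all tested genes in that fit.

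Time in culture alone left the members near the same level. With scrambled siRNA, 0 of 59 were called at 54 h against 30 h in edgeR, against 0.00671% of tested genes. An unadjusted p under 0.05 was seen in 0, against 727 of all 14907 tested genes. The spread in that fit was again shared with the Foxl2 siRNA libraries. When the scrambled groups alone were fitted, 5 members had an unadjusted p under 0.05 in edgeR. All genes were not counted at that threshold in this fit. DESeq2 also called 0, and limma-voom with quality weights called Cenpk, Cenph, Anln and Ube2c lower, against 8.67% of all tested genes called lower by limma-voom. The median log2 change was -0.06, from -0.31 for Ube2c to 0.10 for Spc24. Ube2c had 80.3, 69.9 and 72.0 CPM at 54 h, against 105, 83.1 and 86.6 CPM at 30 h, without overlap (log2 change -0.31 ± 0.20 SE, adjusted p = 1).

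Outside the 59, lists of 125 further genes of mitosis and cell cycle control were looked at, 15 of them cyclin-dependent kinase inhibitors and G1 cyclins. At 54 h after Foxl2 siRNA 86 of the 125 were lower and 13 higher, against 20.3% and 18.5% of all tested genes. The inhibitors and G1 cyclins held 5 of the lower and 8 of the higher genes. Of the 125, 5 were lower and 5 higher at 30 h, below the 6.65% and 6.34% of all tested genes. With Esr2 siRNA 0 were called in edgeR, against 3.11% lower and 1.13% higher. At an unadjusted p under 0.05 there were 8 of the 125, against 2625 of all 14907 tested genes. Of the other centromere and kinetochore genes 20 of 24 were lower at 54 h, led by Ska1 and Oip5 (log2 change -1.05 each) and Hjurp (-1), the chaperone that loads the histone variant encoded by Cenpa. Zwint, a kinetochore linker, went the other way with 380, 214 and 334 CPM with Foxl2 siRNA, against 206, 186 and 200 CPM with scrambled siRNA (log2 change 0.65 ± 0.17 SE, adjusted p = 0.0104). Of the other checkpoint genes 9 of 10 were lower, led by Kntc1 (-1.02), Sgol2a (-0.88) and Zwilch (-0.77). Of the other spindle, centrosome and cytokinesis genes 23 of 27 were lower, led by Sapcd2 (-1.31), Depdc1b (-1.19) and Troap (-1.17). The median log2 change of these 3 lists was -0.57, -0.58 and -0.63.

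Of the anaphase-promoting complex and its regulators 6 of 17 were lower and 2 higher, with a median log2 change of -0.10; Fbxo5, its interphase inhibitor EMI1, had -0.92, Cdc27 -0.53 and Anapc15 0.71. Of cohesin and condensin II 9 of 13 were lower and 1 higher, with a median of -0.29, led by Cdca5 (-0.86), sororin, and Ncapd3 (-0.81). Of the other entry and late cell cycle regulators 14 of 19 were lower, with a median of -0.60, led by E2f8 (-1.18), Nek2 and Cdca3 (-0.94 each), and Wee1, the kinase that holds CDK1 inactive, was higher (0.45).

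Among cyclin-dependent kinase inhibitors and G1 cyclins 8 of 15 were higher and 5 lower at 54 h, against 18.5% and 20.3% of all tested genes. Ccnd1, cyclin D1, had 86.7, 33.6 and 209 CPM with Foxl2 siRNA, against 16.6, 29.9 and 24.6 CPM with scrambled siRNA (log2 change 2.21 ± 0.54 SE, adjusted p = 0.00603). Cdkn2b, which encodes the inhibitor p15, had 52.6, 32 and 55.5 CPM with Foxl2 siRNA and 21.3, 19.3 and 19.9 CPM with scrambled siRNA (log2 change 1.21 ± 0.16 SE, adjusted p = 0.000108). In both genes replicate 2, in which the mitosis genes were least reduced, had the lowest level of the Foxl2 siRNA libraries. Cdkn2a was higher by 1.18 on the log2 scale, while Cdkn2c, Ccne2 and Ccne1 were lower with log2 changes of -0.77, -0.68 and -0.63.

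**Figure D5:**
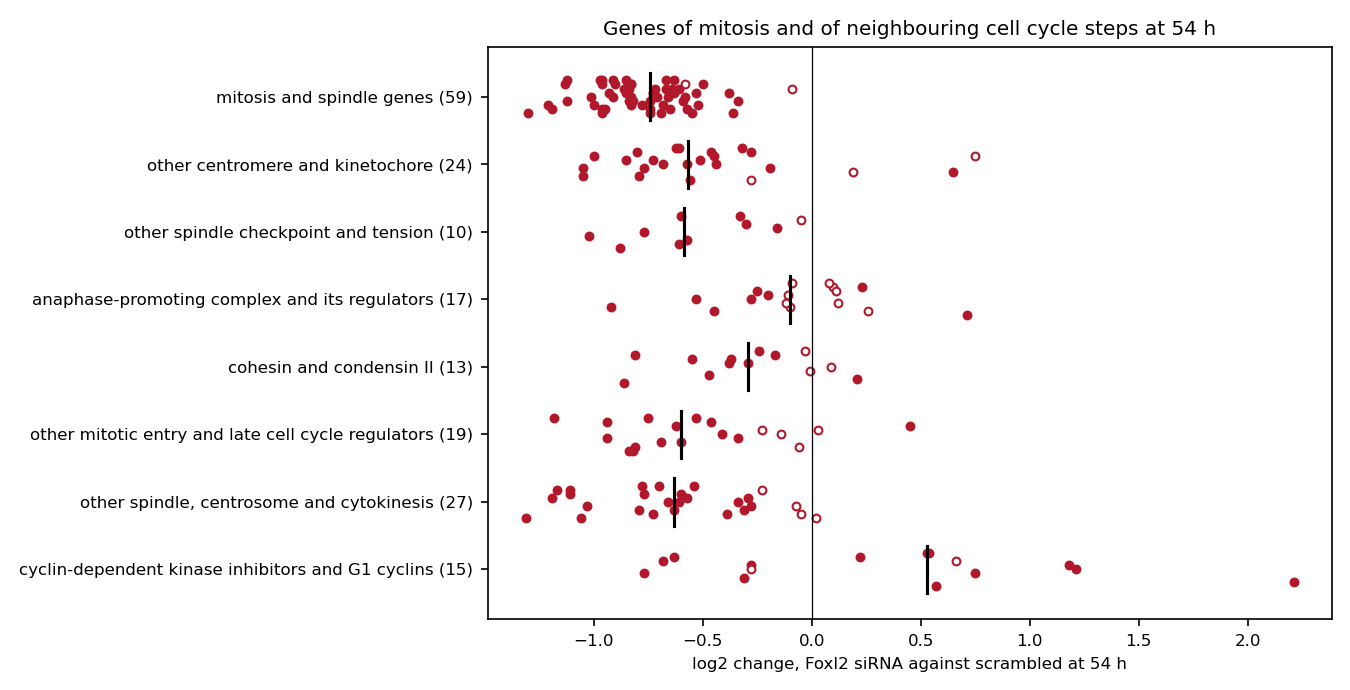
Log2 change at 54 h, Foxl2 siRNA against scrambled siRNA, of the 59 mitosis and spindle genes and of 7 lists of related genes (gene numbers in brackets); filled points have an adjusted p under 0.05, and black bars are list medians. The median is -0.74 for the 59 genes, -0.10 for the anaphase-promoting complex and 0.53 for cyclin-dependent kinase inhibitors and G1 cyclins.

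Promoter letters were counted for the members with a RefSeq window of 250 bases before to 50 after the start: 49 of 59 genes, with 54 windows. TTTGAA, the CHR, counted on both strands, was in 37 of the 54 windows (68.5%), against 17.9% of 32851 windows of the same length. In the 100 bases before the start it was in 13 windows (24.1%), against 5.77%, and in the 50 bases from the start on in 20 (37%), against 2.25%. CCAAT, the core of the NF-Y box, was in 40 windows (74.1%), against 37.4% of all, and both motifs together in 32 (59.3%), against 6.95%. The motifs were searched independently and can overlap, and a match is a description of letters, not a site.

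Other letters searched on both strands were rarer in these windows. TTCGAA, a variant CHR, was in 4 windows (7.41%, against 1.56% of all), and TGTTTAC, a forkhead core, in 3 (5.56%, against 3.65%). The E2F-like letters TTTGGCGC were in 3 (5.56%, against 0.514%) and TTTCCCGC in 1 (1.85%, against 1.07%). Members with a TTTGAA in a window, 34 genes, had a median log2 change of -0.73 at 54 h after Foxl2 siRNA, from -1.13 to -0.09, and the 15 without had -0.85, from -1.30 to -0.53. The stretches of Bub3 and Cdc20, printed above, held both motifs.

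Markers of cell types were measured in the same libraries. Surface epithelium markers, 11 of 11 tested, summed to 615 to 835 CPM with Foxl2 siRNA at 54 h, against 259 to 272 CPM with scrambled siRNA. Of these 11, 6 were called higher, against 18.5% of all tested genes. At 30 h the sums were 309 to 360 CPM, against 200 to 207 CPM, and 3 were called higher, against 6.34% of all tested genes. Wt1 had the highest level in that list. The part of this shift in the mitosis gene values was not tested. Granulosa markers, 13 of 13 tested, summed to 3380 to 4550 CPM with Foxl2 siRNA at 54 h, against 4040 to 4220 CPM with scrambled siRNA. Of these 13, 6 were lower and 3 higher at 54 h, against 20.3% and 18.5% of all tested genes. Foxl2, the target of the siRNA, and Esr2 were among the lower ones. Inha, with 1600, 2240 and 1410 CPM with Foxl2 siRNA at 54 h, had the highest level in that list and was not called. Fshr, Amh and Cyp19a1 of the same list were low, with 426, 344 and 1355 counts in all over the 15 libraries. Leukocyte, endothelium, oocyte and erythroid markers each summed to at most 15.8 CPM in any library. Theca and stroma markers, 11 listed, summed to 329 to 865 CPM with Foxl2 siRNA at 54 h, against 262 to 702 CPM with scrambled siRNA, and smooth muscle and pericyte markers to 543 to 1090 CPM, against 403 to 1000 CPM.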

How the data were processed

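Poly(A) RNA was sequenced with a stranded kit as single 75-base reads, per the labels' protocols. The authors deposited 1 table of raw counts per library, whole numbers of reads per gene symbol, not normalized. Per the submitters' processing notes the tools were bcl2fastq 2.15.0, TopHat2 and DESeq2 and the build mm10. How reads were counted, on which annotation and strand, was not given in the sources used here, so reads of overlapping or antisense genes cannot be told apart. Each table held 24582 features, of which 92 were ERCC spike-ins (0.105% to 0.352% of counts), left out. In 1 library 15 date-like symbols were restored from the row order shared with the other libraries. A table of the whole series was not used.

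The main test on counts was that of edgeR 4.0.16 (R 4.3.3): TMM scaling, its expression filter by group (14907 genes kept), 1 quasi-likelihood fit of 5 group means over all 15 libraries with 10 residual degrees of freedom, two-sided tests and Benjamini-Hochberg adjustment over all tested genes. An adjusted p under 0.05 made a call. Levels are TMM-scaled CPM, and per-length levels divide by the union of exons in GENCODE M21. A permutation of 3 against 3 libraries cannot go below p = 0.1 and was not used. Alternatives were other scalings, no filter, DESeq2 1.42.0, limma 3.58.1 voom with quality weights and a replicate block. Others were a fit of the groups compared alone and leaving out each library of those groups in turn. The test was run on simulated counts with known changes first.

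Members described singly are Mki67, Top2a, Cdk1, Ccnb1, Plk1, Aurkb, Foxm1 and Mybl2 and, in each role group, the up to 2 called members with the largest change in a comparison with scrambled siRNA; the members and all lists were chosen with earlier results of these data known. Of other lists, the up to 3 called genes with the largest change are named. Zwint, Wee1, Cdkn2c, Ccne2 and Ccne1 are named outside that rule.

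Replicate numbers in the titles are shared between groups. Correlations of deviations from the group means were 0.72, 0.63 and 0.17 between same-numbered libraries of the scrambled groups at 54 h and 30 h. Replicate 3 of 30 h correlated more with replicate 2 of 54 h (0.39), so pairing by number is not established there. For the other comparisons at least 1 same-numbered pair was below 0.1.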

Additional observations from a re-analysis of the deposited data

How the results depend on the processing

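No member reversed its direction among those called, and 42 of the 57 calls at 54 h after Foxl2 siRNA held under all 13 alternatives. Whichever single library of the 2 groups compared was left out, 45 held. The 12 other calls, which ended without some library, were Ccnb2, Cdc25c, Cenpn, Dlgap5, Kif18b, Kif20a, Kif22, Kif23, Prc1, Pttg1, Spc24 and Ube2c. Libraries of the other groups were not left out for this comparison. Leaving out 1 library of the groups compared gave 45 to 58 members lower at 54 h and 0 to 10 lower at 30 h. It gave 0 to 14 lower for Foxl2 siRNA against Esr2 siRNA, and 0 to 47 for the difference of the Foxl2 siRNA changes. For Esr2 siRNA and for time with scrambled siRNA it gave 0. The 47 came without replicate 2 of Foxl2 siRNA at 54 h, and the 10 and 14 without replicate 3 of Foxl2 siRNA at 30 h. DESeq2 gave 4 members lower at 30 h, 6 against Esr2 siRNA and 1 for the difference of changes. Its shares over all tested genes were 8.53%, 11.8% and 0.61%. Limma-voom with quality weights gave 31, 30 and 53 for the same comparisons, against 18.5%, 18% and 3.82%. It gave 4 lower with time, against 8.67%, and 3 higher and 1 lower with Esr2 siRNA, against 14.4% and 17.3%. Fitting only the groups compared gave 3 lower at 30 h (Mybl2 and Kif11 beside Kif18a), near the 5.01% of all tested genes lower in that fit. It gave 45 lower at 54 h, against 14.9%, and 1 higher with Esr2 siRNA, against 3.13%. The cause of these differences was not tested.

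With the replicate block 54 members were lower at 54 h (Kif23, Kif22 and Prc1 lost), against 20.3% of all tested genes. It gave 1 lower at 30 h and 3 lower against Esr2 siRNA, against 6.67% and 9.47%. With time, with Esr2 siRNA and for the difference of changes it gave 0, against 0.0201%, 4.07% and 0.00671% in either direction. The replicate block changed no other member call. Over all groups, correlations of same-numbered libraries ran from -0.55 to 0.75, with 15 of 30 above 0.1. In replicates 1 to 3 they were 0.54, 0.52 and 0.07 between Foxl2 siRNA and scrambled siRNA at 30 h. At 54 h they were 0.42, -0.01 and 0.19, and between Esr2 siRNA and scrambled siRNA at 30 h -0.14, -0.55 and 0.35. Differently numbered libraries ran from -0.7 to 0.71. What the shared numbers stand for was not tested. Other scalings left the median log2 change of all genes between -0.01 and 0.03 and kept every member count; upper-quartile scaling split all calls at 30 h into 1204 higher and 799 lower, against 945 and 991. Without a scaling factor the summed member level with Esr2 siRNA was 4863 CPM. With 3 libraries a group the SEs of the members ran from 0.06 to 0.28 (log2), against a median change of -0.24 at 30 h.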
